A study of Homo sapiens with 20 samples.

Results

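Liver lineage transcription factors are the regulators that set up and maintain the hepatocyte programme, and 8 of them were followed here by symbol through a human RNA-seq series: HNF4A, FOXA1, FOXA2, FOXA3, CEBPA, ONECUT2, NR1H4 and PROX1. All 8 were found among the 26038 gene symbols of the deposited tables. MHCC-97H, the cell line named for all samples, derives from a human liver cancer, and its 20 polyA RNA libraries form 4 groups of 5. R-37 and R-47 are labelled wild type and spent 15 minutes at 37 or 47 °C in a water bath and were then returned to an incubator for 24 hours. NC, also labelled wild type, and NFS1, labelled NFS1 knockdown, were both held at 47 °C for the same times, so the second experiment has no unheated group. The design text names shRNA as the means of knockdown. The labels name no construct for NC and do not say whether each library had its own culture, and the p-values reflect only how these libraries vary, which may be technical. The heating was used as a model of cells that survive an insufficient microwave ablation.

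Hepatocyte identity rests on a network of factors that bind the promoters and enhancers of liver genes and of each other. HNF4A is an orphan nuclear receptor that binds as a homodimer and is needed for the expression of many plasma protein and metabolic genes. FOXA1, FOXA2 and FOXA3 are forkhead proteins, often called pioneer factors because they bind sites in closed chromatin. CEBPA is a leucine zipper factor that promotes metabolic gene expression and restrains proliferation, and ONECUT2 is a cut-homeodomain factor of the early liver and biliary lineage. NR1H4 encodes FXR, the bile acid receptor, which pairs with RXRA, and PROX1 is a homeobox factor of the hepatoblast that is also known as the marker of lymphatic endothelium.

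The upstream sequences of the members on which the results turn are shown first. They are the 250 bases before a start of NR1H4 and before both starts of HNF4A that the RefSeq table lists. NR1H4 was the member that differed most between groups. The NR1H4 start used here lies inside the gene's RefSeq span (chr12:100473866-100564414), so its window is not upstream of the whole gene. Sequences are from RefSeq (GRCh38.p14), are on the plus strand, and are written 5′ to 3′. Capitals mark a match, on either strand (a reverse match reads TGACCT or ATTGAT as printed), to a short motif: AGGTCA, a single repeat bound by nuclear receptors, or ATCAAT, bound by ONECUT factors.
NR1H4, chr12:100503110-100503359: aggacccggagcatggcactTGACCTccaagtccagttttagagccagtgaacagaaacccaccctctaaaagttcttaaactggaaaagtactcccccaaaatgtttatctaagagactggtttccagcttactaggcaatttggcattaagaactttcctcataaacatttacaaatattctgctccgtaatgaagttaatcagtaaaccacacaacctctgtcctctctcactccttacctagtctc
HNF4A, first start, chr20:44355449-44355698: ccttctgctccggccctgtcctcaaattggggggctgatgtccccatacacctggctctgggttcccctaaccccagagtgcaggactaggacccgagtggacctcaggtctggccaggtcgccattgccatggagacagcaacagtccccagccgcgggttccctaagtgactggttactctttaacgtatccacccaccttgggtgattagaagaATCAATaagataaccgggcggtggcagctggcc
HNF4A, second start, chr20:44400989-44401238: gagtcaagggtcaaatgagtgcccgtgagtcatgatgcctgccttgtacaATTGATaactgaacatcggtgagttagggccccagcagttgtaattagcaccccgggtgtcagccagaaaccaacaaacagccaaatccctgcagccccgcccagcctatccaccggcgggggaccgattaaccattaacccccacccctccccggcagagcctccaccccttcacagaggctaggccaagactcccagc
The FOXA3 window holds AGGTCA on the reverse strand, 239 bases before its start. The NR1H4 window holds it on the reverse strand beginning 230 bases before the start, a motif present in 12.1% of all 35116 windows of the same length. The HNF4A windows hold ATCAAT 33 bases before the first start on the forward strand and 200 bases before the second start on the reverse strand, and 5.58% of all windows hold it. GC content was 42% in the NR1H4 window and 58.4% and 58% in those of HNF4A, against a median of 58% over all windows. The members with a window were CEBPA, FOXA1, FOXA3, HNF4A, NR1H4 and ONECUT2; FOXA2 and PROX1 had no entry. The heat shock element, as 3 alternating pentamers, was found in none of these windows and in 0.441% of all. The FOXA motif TGTTTGC (3.23% of windows) was found in the FOXA1 window alone, and TATAAA (10.7% of windows) in those of CEBPA and FOXA3, 30 bases before the start in each. TGTTTAC (FOXA, 2.98% of windows) and ATCGAT (ONECUT, 0.655%) were in none of them, nor were the CEBP motif (9.05%), the HNF4 direct repeat (0.0171%) and the FXR inverted repeat (0%). Both repeats contain AGGTCA. The counts are per gene, so they do not tell which start of HNF4A or NR1H4 was used.

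Total counts per library ran from 32219946 to 39689939, with both extremes in R-37. NFS1 replicate 4 and R-37 replicate 5 lay farthest from the other 4 libraries of their group, by a root mean square log2 difference of 0.459 and 0.448, against 0.293 to 0.397 for the other libraries. NFS1, the cysteine desulfurase named by the knockdown label, was at 66.5 ± 2.9 CPM (counts scaled to the library total by TMM over all 20 libraries, mean ± SD, n = 5) in the libraries labelled NFS1 and at 72.7 ± 1.9 in NC. That difference did not pass the threshold (log2 fold change -0.11 with SE 0.05, adjusted p = 0.114, edgeR), although all 5 libraries labelled NFS1 lay below all 5 of NC. Directions for this group below refer to the libraries so labelled. The labelled cell type was checked against 39 hepatocyte genes that the liver factors are known to activate, of which 37 were in the table. Mean FPKM, the authors' value per gene length and library total, was at least 1 for 17 of them in R-37, 15 in R-47, 11 in NC and 10 in NFS1. The fibrinogen chain FGB averaged 10.8 to 31.7 FPKM over the groups and APOH, a plasma glycoprotein, 11.1 to 24.0. ALB, which encodes albumin, averaged 5.52 FPKM in R-37 and 0.304 in NFS1, and the plasma carrier TTR, abundant in normal liver, only 0.0361 to 0.0811. PCK1 of gluconeogenesis had no count in R-37, R-47 and NC.

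On a per-length scale CEBPA was the highest member in every group and FOXA2 came next. CEBPA averaged 53.0 ± 9.3 FPKM in R-37, 56.6 ± 1.9 in R-47, 36.4 ± 4.9 in NC and 33.6 ± 7.1 in NFS1, above 92.2 to 95.8% of the genes in the table. FOXA2 averaged 18.5 to 25.2 FPKM over the 4 groups. FOXA1 (6.46 to 10.4 FPKM) and HNF4A (5.52 to 14.1 FPKM) were lower than FOXA2 in every group, FOXA1 above HNF4A in R-37 and R-47 and below it in NC and NFS1. FOXA3 averaged 2.20 to 8.52 FPKM, below FOXA1 in R-37 and R-47 and slightly above it in NC and NFS1. PROX1 (0.551 to 1.68 FPKM) and ONECUT2 (0.322 to 1.07 FPKM) were low throughout. NR1H4 was at 1.82 ± 0.09 FPKM in R-37 and 2.18 ± 0.20 in R-47, and at 0.0699 ± 0.0173 in NC and 0.0431 ± 0.0259 in NFS1.

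**Figure D1:**
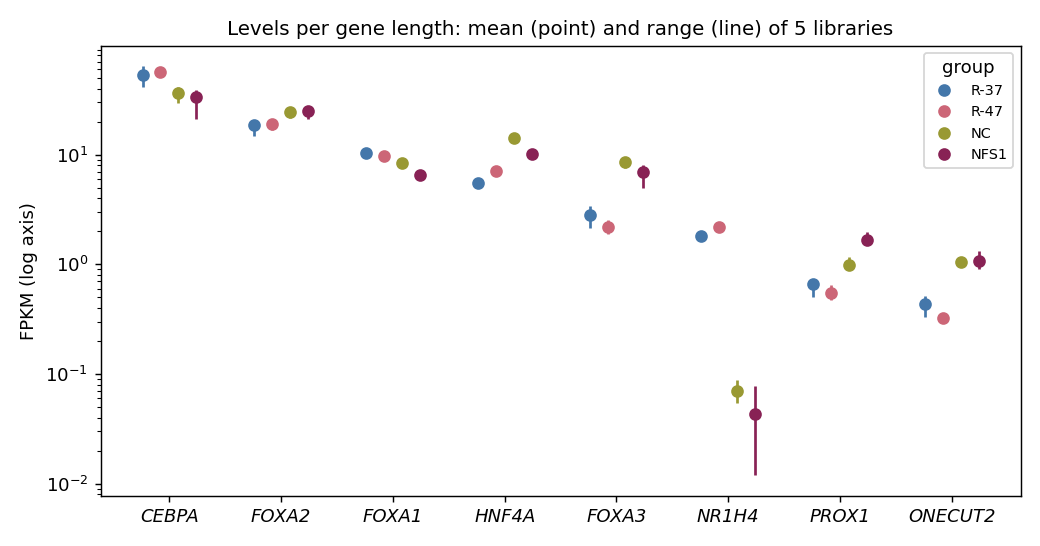
FPKM of the 8 genes on a log axis, with the mean of 5 libraries as a point and their lowest and highest value as a line, for R-37, R-47, NC and NFS1. CEBPA is highest in every group, and NR1H4 drops from about 2.18 FPKM in R-47 to 0.0699 in NC.

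The first comparison asked what 47 °C left in wild-type cells after 24 hours. HNF4A rose, while FOXA1, FOXA3 and ONECUT2 fell. FOXA2, CEBPA, NR1H4 and PROX1 did not pass the threshold. All 8 members were tested. The 4 that passed edgeR's quasi-likelihood test stand beside 25.1% of 14344 tested genes that passed. One direction at a time, 1 member rose beside 11.9% of tested genes and 3 fell beside 13.2%. The groups did not overlap for 3 members beside 18% of tested genes, for 1 as higher beside 8.07% and for 2 as lower beside 9.95%.

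HNF4A was at 49.7, 46.0, 46.2, 45.5 and 40.7 CPM in R-37 replicates 1 to 5 and at 52.6, 52.1, 59.7, 56.3 and 55.9 CPM in R-47. Every heated library lay above every unheated one. The means of 45.6 ± 3.2 and 55.3 ± 3.1 CPM (SD, n = 5 each) gave a log2 fold change of 0.28 (with SE 0.06, adjusted p = 0.0033, edgeR), and the call held in all 22 alternatives, with log2 fold changes of 0.25 to 0.36. FOXA1 was at 49.9, 49.1, 49.0, 52.5 and 48.6 CPM in R-37 and at 43.0, 41.2, 45.2, 43.0 and 46.9 CPM in R-47. The groups did not overlap, but the change was small (log2 fold change -0.18 with SE 0.05, adjusted p = 0.023, edgeR). FOXA1 lost its call with library size alone (adjusted p = 0.171, edgeR), with the replicate number as a block (adjusted p = 0.0608) and in the 3 FPKM settings (adjusted p = 0.124 to 0.131, limma). It also lost it without R-37 replicate 4 (adjusted p = 0.0717), R-47 replicate 2 (0.0694) or R-47 replicate 4 (0.0535, edgeR).

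ONECUT2 was at 6.75, 9.40, 8.08, 6.08 and 9.35 CPM in R-37 and at 5.77, 5.37, 5.75, 5.62 and 5.52 CPM in R-47. The unheated libraries were spread widely and the heated ones lay close together below them all. ONECUT2 fell by 0.50 on the log2 scale (with SE 0.12, adjusted p = 0.00691, edgeR), and lost its call in 1 of 20 alternatives, log2(FPKM + 1) with no filter (adjusted p = 0.0716, limma), where the pseudocount exceeds its FPKM. FOXA3 ranged from 4.56 to 7.40 CPM in R-37 and from 3.90 to 5.20 in R-47, with R-37 replicate 5 inside the heated range. It fell by 0.43 (with SE 0.14, adjusted p = 0.0289, edgeR) and lost its call in 8 of 22 alternatives. These were library size alone (adjusted p = 0.0586, edgeR), 2 FPKM settings (0.0511 and 0.131, limma), and leaving out R-37 replicate 1 (0.065), R-37 replicate 4 (0.0728), R-47 replicate 3 (0.0751), R-47 replicate 4 (0.0659) or R-47 replicate 5 (0.0623, edgeR).

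CEBPA was at 189, 138, 179, 155 and 121 CPM in R-37 and at 158, 154, 159, 152 and 166 CPM in R-47. The means were alike (156 ± 28 and 158 ± 5 CPM, log2 fold change 0.02 with SE 0.09, adjusted p = 0.909, edgeR), while the unheated libraries spanned a much wider range. With length and GC offsets CEBPA passed as lower (log2 fold change -0.16, adjusted p = 0.00151, edgeR). FOXA2 had 57.1 ± 8.3 and 55.7 ± 4.9 CPM (log2 fold change -0.03 with SE 0.09, adjusted p = 0.832, edgeR). NR1H4 had 9.45 ± 0.48 and 10.7 ± 0.9 CPM (0.19 with SE 0.08, adjusted p = 0.0963, edgeR) and passed as higher with library size alone (0.0236, edgeR), length and GC offsets (0.011, edgeR) and 2 FPKM settings (0.025 and 0.0258, limma). PROX1 had 7.18 ± 0.98 and 5.72 ± 0.68 CPM (-0.32 with SE 0.12, adjusted p = 0.0594, edgeR). It passed as lower without R-37 replicate 1 (adjusted p = 0.0132), without R-47 replicate 1 (0.0337), in 1 fit of all 20 libraries (0.0445, edgeR) and by DESeq2 (0.0425).

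**Figure D2:**
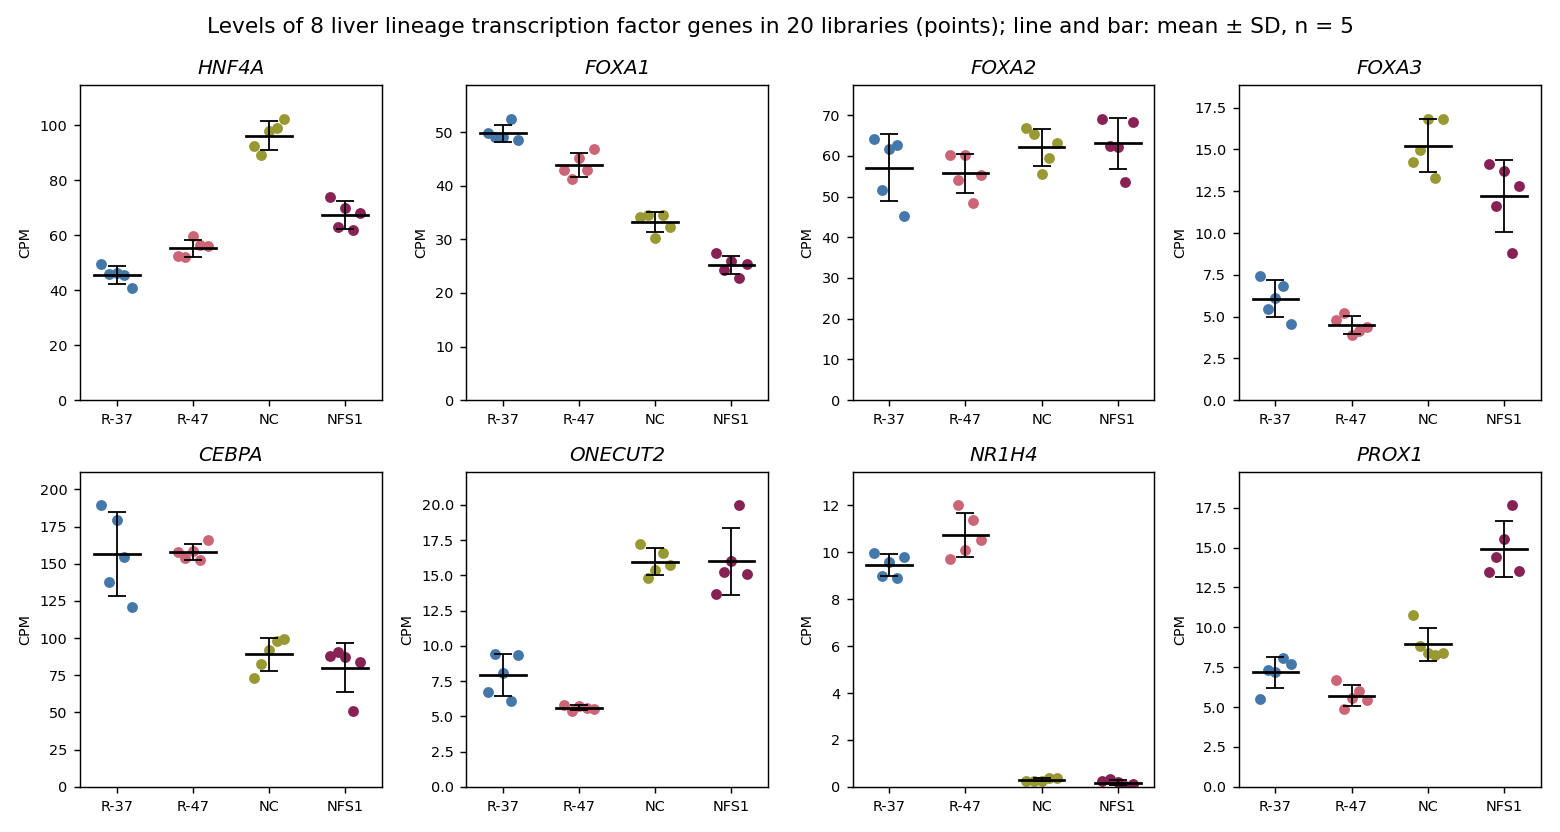
CPM of each gene in each of the 20 libraries (points, replicates 1 to 5 from left to right), with the mean as a line and ± SD as a bar for each group (n = 5); each panel has its own axis, starting at 0. HNF4A steps up from R-37 to R-47 and down from NC to NFS1 without overlap, and NR1H4 lies near 0 in NC and NFS1.

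The second comparison set the libraries labelled NFS1 knockdown against NC, all heated. HNF4A and FOXA1 fell and PROX1 rose. FOXA2, FOXA3, CEBPA and ONECUT2 did not pass, and NR1H4 had too few counts to be tested. Of the 7 members tested 3 passed, beside 28.1% of 15086 tested genes: 1 higher beside 15.7% and 2 lower beside 12.5%. The same 3 had groups that did not overlap, beside 21% of tested genes and 10.5% in each direction.

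In NC replicates 1 to 5 HNF4A had 92.6, 89.3, 98.0, 99.0 and 102 CPM, and the NFS1 libraries had 73.9, 63.1, 70.0, 61.8 and 68.0 CPM. All NFS1 libraries lay below all NC libraries, and above the R-47 libraries. The log2 fold change was -0.50 (with SE 0.06, adjusted p = 4.18e-05, edgeR), a 1.41-fold lower level, and -0.44 to -0.56 over all 24 alternatives, all of them past the threshold. FOXA1 was at 34.2, 34.5, 30.3, 34.5 and 32.2 CPM in NC and at 27.4, 24.3, 26.0, 22.8 and 25.4 CPM in NFS1. It fell by 0.38 on the log2 scale (with SE 0.07, adjusted p = 0.000901, edgeR) and passed in all 24 alternatives.

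PROX1 was at 10.8, 8.81, 8.40, 8.29 and 8.38 CPM in NC and at 13.5, 14.4, 15.5, 17.6 and 13.5 CPM in NFS1. NC replicate 1 stood above the other 4 NC libraries and NFS1 replicate 4 was the highest of all, and the groups still did not overlap. The log2 fold change of 0.76 (with SE 0.10, adjusted p = 0.000113, edgeR) was the largest among the members tested in this comparison, and 6.36% of all tested genes had a larger absolute value. It passed in all 24 alternatives, those without NC replicate 1 and NFS1 replicate 4 included.

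CEBPA was at 73.2, 82.3, 92.3, 98.0 and 99.4 CPM in NC and at 87.9, 90.8, 87.1, 51.1 and 84.1 CPM in NFS1. NFS1 replicate 4 alone lay below the NC range, and the other 4 NFS1 libraries lay inside it (log2 fold change -0.13 with SE 0.13, adjusted p = 0.487, edgeR). FOXA3 had 15.2 ± 1.6 and 12.2 ± 2.1 CPM (-0.30 with SE 0.12, adjusted p = 0.0723, edgeR). It passed as lower with the replicate number as a block (0.0467), with length and GC offsets (0.0179), without NFS1 replicate 1 (0.0413, edgeR) and by DESeq2 (0.04). FOXA2, at 62.1 ± 4.6 and 63.1 ± 6.3 CPM, had a log2 fold change of 0.04 (with SE 0.08, adjusted p = 0.731, edgeR). ONECUT2 had 15.9 ± 1.0 and 16 ± 2.4 CPM (0.02 with SE 0.10, adjusted p = 0.882, edgeR), and with length and GC offsets it passed as lower (log2 fold change -0.23, adjusted p = 0.00419, edgeR). NR1H4 had 9, 10, 10, 15 and 15 counts in NC and 9, 13, 8, 2 and 4 counts in NFS1. The ranges overlapped, and an exact permutation test of log2 CPM, counting both directions, gave p = 0.079, where 0.0079 is the smallest it can give.

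The third comparison set the wild-type groups heated to 47 °C in the 2 experiments against each other. NR1H4 and CEBPA were lower in NC than in R-47, and so was FOXA1. FOXA3, ONECUT2, HNF4A, PROX1 and FOXA2 were higher. All 8 members passed, beside 79.7% of 15080 tested genes, 5 as higher beside 40.1% and 3 as lower beside 39.6%. Groups did not overlap for 7 of 8 beside 67.3%, for 4 as higher beside 32.7% and for 3 as lower beside 34.6%. The members' share is therefore near the background of this contrast. NC shares its libraries with the second comparison and R-47 with the first. Experiment, batch, construct and the history of the cells cannot be told apart in this contrast. Scaled by library size alone, the median log2 fold change of all tested genes moved from 0.01 to 0.19, and no member changed its direction.

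NR1H4 was at 9.74, 12, 10.1, 11.4 and 10.5 CPM in R-47, from 353 to 427 counts per library, and at 0.236, 0.256, 0.256, 0.379 and 0.381 CPM in NC, from 9 to 15 counts. The log2 fold change was -5.13 (with SE 0.16, adjusted p = 9.01e-18, edgeR), 35-fold lower, and 1.62% of the tested genes had a larger absolute change. NR1H4 passed the filter on low counts through R-47 alone. In R-37 it was at 9.97, 9.01, 9.58, 8.89 and 9.81 CPM and in NFS1 at 0.230, 0.323, 0.202, 0.0509 and 0.101, so the division ran between the experiments and not between the treatments within them.

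FOXA3 was 3.42-fold higher in NC, at 15.2 ± 1.6 CPM against 4.48 ± 0.53 in R-47 (log2 fold change 1.77 with SE 0.10, adjusted p = 3.63e-13, edgeR) and ONECUT2 2.86-fold, at 15.9 ± 1.0 against 5.61 ± 0.17 CPM (1.51 with SE 0.08, adjusted p = 8.88e-14). HNF4A was 1.75-fold higher in NC (0.81 with SE 0.05, adjusted p = 3.91e-12) and PROX1 1.57-fold (0.65 with SE 0.11, adjusted p = 9.75e-06). CEBPA was 1.76-fold lower, at 158 ± 5 CPM in R-47 and 89.0 ± 11.1 in NC (-0.82 with SE 0.06, adjusted p = 1.42e-10), and FOXA1 1.32-fold lower (-0.40 with SE 0.06, adjusted p = 1.05e-06). FOXA2 differed least (0.16 with SE 0.06, adjusted p = 0.0215, edgeR), with overlapping groups. It lost its call in 1 fit of all 20 libraries (adjusted p = 0.114) and without R-47 replicate 2 (0.0582), R-47 replicate 4 (0.103), R-47 replicate 5 (0.0506) or NC replicate 2 (0.0517).

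**Figure D3:**
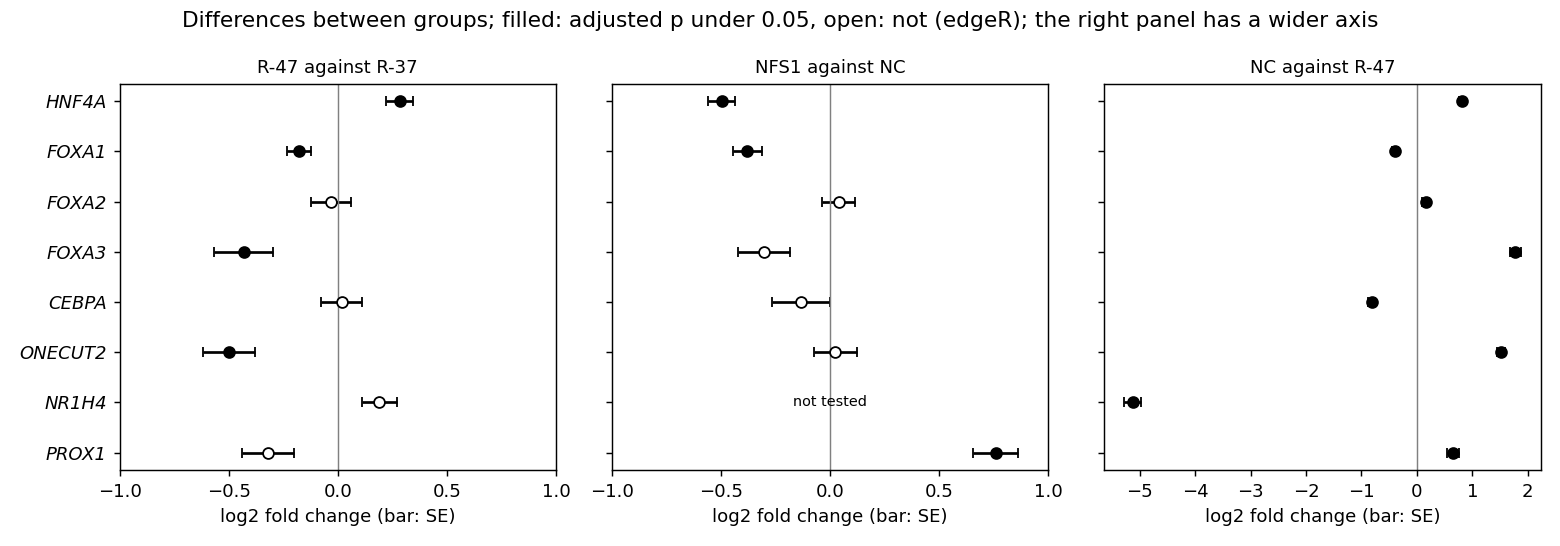
Log2 fold change with its SE for each gene in the 3 comparisons, filled where adjusted p was under 0.05 (edgeR). The right panel has a wider axis, set by NR1H4 at -5.13; in the middle panel NR1H4 was not tested.

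Ordered by mean CPM over the 4 groups, HNF4A ran from NC through NFS1 and R-47 to R-37, and FOXA1 from R-37 through R-47 and NC to NFS1. For both genes no neighbours in the order overlapped. FOXA2 ran from NFS1 through NC and R-37 to R-47, and all its neighbours overlapped. For FOXA3, CEBPA and NR1H4 only the step between the experiments was free of overlap. For ONECUT2 NFS1 and NC overlapped, and for PROX1 R-37 and R-47 did.

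The genes whose 4 group means followed a member most closely were found among 11017 genes by the root mean square distance between the centred log2 CPM means, a description over 4 groups. They were TCTA and MAP3K11 for HNF4A (distance 0.017 and 0.019), PKDCC and MYL12A for FOXA1 (0.033 and 0.036), TAF11 and SMARCAL1 for FOXA2 (0.0058 and 0.0073), and MYO7A and GCH1 for FOXA3 (0.018 and 0.062). PSMB4 and CST3 were nearest to CEBPA (0.02 and 0.021), ADGRL1 and the nuclear receptor gene NR2F1 to ONECUT2 (0.042 and 0.048), and LSMEM1 and GTPBP6 to PROX1 (0.079 and 0.08). For NR1H4 the nearest were FGL1, which encodes a secreted liver protein, and PLCXD3, at the larger distances of 0.31 and 0.39.

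Other liver transcription factors formed a list of 31 genes, all in the table. After heating 26 were tested, of which 1 rose and 4 fell, beside 11.9% and 13.2% of all tested genes, with a list median log2 fold change of 0.00 beside -0.01 for all tested genes. NR1I2, the xenobiotic receptor PXR, rose from 3.31 ± 0.58 to 5.98 ± 1.18 CPM (log2 fold change 0.86 with SE 0.16, adjusted p = 0.00107, edgeR). SOX9, a biliary and progenitor factor, fell by 0.35 and the orphan receptor NR2F1 by 0.34.

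In NFS1 against NC, 6 of 25 tested genes of that list were higher and 4 lower (median 0.05 beside 0.02), where 15.7% of all tested genes were higher and 12.5% lower. ZHX2, a homeobox repressor of fetal liver genes, rose from 5.40 ± 0.79 to 11.03 ± 1.41 CPM (log2 fold change 1.05 with SE 0.12, adjusted p = 2.43e-05, edgeR), and RXRA, the partner of FXR and other receptors, from 38.7 ± 5.4 to 63.0 ± 9.6 CPM. NR5A2, a receptor of bile acid synthesis, fell by 0.80 and the stress factor ATF5 by 0.60. Between NC and R-47, 9 of 25 were higher and 11 lower (median -0.05 beside 0.01), close to the 40.1% and 39.6% of all tested genes; with library size alone 11 were higher and 10 lower. ONECUT1, the sister gene of ONECUT2, was at 5.54 ± 0.51 CPM in NC and 1.09 ± 0.31 in R-47 (log2 fold change 2.35 with SE 0.17, adjusted p = 3.78e-11, edgeR), and NR2F1 was higher by 1.42. NR1I2 was lower in NC by 2.86 and RXRA by 2.17, the latter at 176 ± 6 CPM in R-47.

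Of the 37 hepatocyte target genes in the table, 24 were tested after heating. Of these 12 fell and 1 rose, with a median log2 fold change of -0.38 beside -0.01 over all tested genes, in the comparison in which HNF4A rose. A link between these targets and HNF4A was not tested. Over all tested genes 13.2% fell and 11.9% rose. ALB fell from 14.1 ± 1.6 to 5.10 ± 0.76 CPM (log2 fold change -1.46 with SE 0.11, adjusted p = 2.5e-07, edgeR), and the protease inhibitor SERPINA1 from 5.82 ± 0.98 to 2.36 ± 0.39 CPM (-1.29 with SE 0.15). The fibrinogen chain FGA was the gene that rose, by 0.19. In NFS1 against NC 9 of 21 tested were lower and 3 higher (median -0.47 beside 0.02), beside 12.5% and 15.7% of all tested genes. F2, which was lower, passed the filter on low counts through NC alone, and AGT, which was higher, through NFS1 alone. With the replicate number as a block the counts were 6 lower and 0 higher, and without NFS1 replicates 2 and 3 they were 4 lower and 1 higher of 23. With each library left out they were 7 to 8 lower and 0 to 3 higher, none being higher without NC replicate 4 or NC replicate 5. Among the 10 targets with a mean of at least 1 FPKM the median was 0.13. AMBP, a plasma inhibitor precursor, fell from 3.91 ± 0.94 to 1.75 ± 0.49 CPM (-1.14 with SE 0.21) and the clotting factor F7 by 1.11, while MTTP, which loads lipid onto apolipoprotein B, rose by 0.40 and the fibrinogen chain FGG by 0.33.

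Between NC and R-47, 14 of 24 tested hepatocyte targets were lower and 8 higher (median -0.57 beside 0.01; 39.6% and 40.1% of all tested genes). PROC and TAT, both lower, passed the filter on low counts through R-47 alone. RBP4, the retinol carrier, had no count in NC and 3.86 ± 0.35 CPM in R-47, so it passed the filter on low counts through R-47 alone. It was at least 251-fold lower in NC, against a floor of 3 counts over the 5 NC libraries. AGT, angiotensinogen, was lower by 4.51 on the log2 scale, at 0.370 ± 0.090 and 8.53 ± 0.60 CPM. FGB was higher in NC, at 101.5 ± 3.2 CPM against 41.9 ± 2.0 (1.28 with SE 0.05), and F7 by 1.69. F7 passed the filter on low counts through NC alone.

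**Figure D4:**
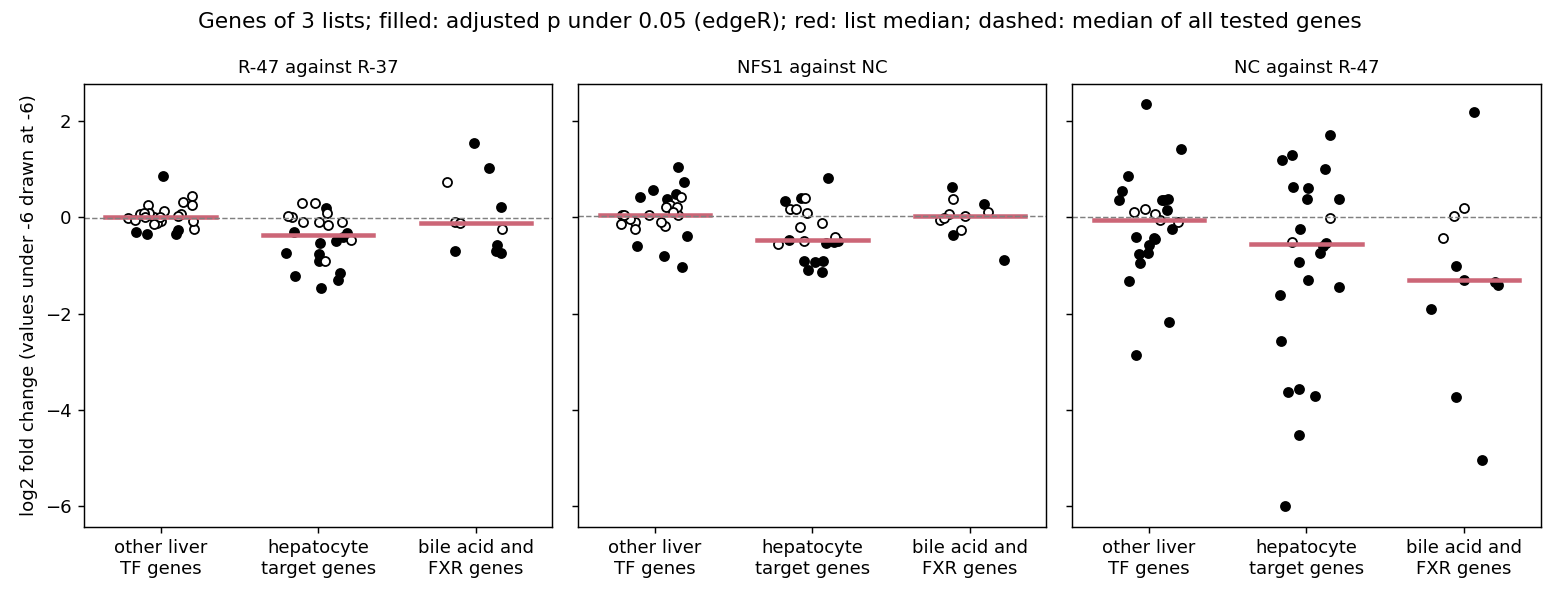
Log2 fold change of each tested gene of 3 lists in the 3 comparisons, filled where adjusted p was under 0.05 (edgeR), with the list median in red and the median of all tested genes dashed. The median of the hepatocyte target genes is -0.38, -0.47 and -0.57, below the dashed line in all 3 panels, and RBP4 is drawn at the lower edge. In NFS1 against NC the median of only the targets with a mean of at least 1 FPKM, given above, lay above that line.

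Of 22 genes of bile acid handling and the FXR pathway, 21 were in the table and 11 were tested in each comparison. Between NC and R-47, where NR1H4 was lower, 7 were lower and 1 higher (median -1.31 beside 0.01), where 39.6% of all tested genes were lower and 40.1% higher. A link to NR1H4 was not tested and cannot be told apart from the other differences between the experiments. SLC51B, a subunit of the basolateral bile acid exporter and a known FXR target, was at 9.07 ± 0.60 CPM in R-47 and 0.271 ± 0.154 in NC. Its log2 fold change was -5.04 (with SE 0.20, adjusted p = 8.62e-16, edgeR), and it passed the filter on low counts through R-47 alone. KNG1, also among the 7 lower genes, passed the filter through R-47 alone as well. BAAT, which conjugates bile acids, was at 11.9 ± 0.5 and 0.887 ± 0.231 CPM (-3.74 with SE 0.14). The FGF19 coreceptor KLB was higher in NC, at 3.45 ± 0.34 against 0.759 ± 0.221 CPM (2.18 with SE 0.20). With library size alone 3 were higher and 7 lower. NR0B2, the classic FXR target that encodes the repressor SHP, averaged at most 0.121 CPM in any group and was not tested.

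After heating, 3 of the 11 rose and 4 fell (median -0.12 beside -0.01), beside 11.9% and 13.2% of all tested genes. KNG1 was among the 3 that rose and passed the filter on low counts through R-47 alone. The bile salt export pump ABCB11, another known FXR target, rose from 2.46 ± 0.59 to 4.97 ± 0.74 CPM (log2 fold change 1.01 with SE 0.17, adjusted p = 0.000538, edgeR), and the sterol hydroxylase CYP27A1 by 0.21. BAAT fell from 20.1 ± 2.1 to 11.9 ± 0.5 CPM (-0.75 with SE 0.08) and the receptor FGFR4 by 0.71. In NFS1 against NC 2 were higher and 2 lower (median 0.02 beside 0.02), beside 15.7% and 12.5% of all tested genes. The export pump ABCC2 rose from 252 ± 10 to 383 ± 30 CPM (0.62 with SE 0.06) and CYP27A1 by 0.27, whereas FGFR4 fell by 0.36.

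Of 5 noncoding genes next to members, 4 were in the table and 2 were tested. LINC00261 (chr20:22560553-22578642, hg38), which lies beside FOXA2 (chr20:22580998-22585490), was at 19.4 ± 1.7 CPM in R-37, 14.2 ± 0.9 in R-47, 46.0 ± 3.8 in NC and 28.4 ± 3.1 in NFS1. It fell after heating (log2 fold change -0.44 with SE 0.08, adjusted p = 0.000652, edgeR) and in NFS1 against NC (-0.68 with SE 0.08, adjusted p = 5.12e-05), and it was higher in NC than in R-47 (1.70 with SE 0.07, adjusted p = 9.42e-16). FOXA2 itself moved by at most 0.16 in these comparisons. CEBPA-DT, the divergent transcript of CEBPA, rose after heating from 3.88 ± 0.43 to 5.04 ± 0.63 CPM (0.38 with SE 0.12), while CEBPA did not pass. Without a stated strand setting, reads of overlapping or antisense genes cannot be separated.

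Genes used as markers of other cell types moved with the same comparisons, and their part in the members' differences was not tested. All libraries are labelled as the cultured line MHCC-97H, so the labels name no other cell type. In bulk libraries fewer cells of a kind and less RNA per cell cannot be told apart. Of 9 cholangiocyte markers in the table, 7 were tested after heating. KRT7 rose by 0.92, and SOX9 and SPP1 fell by 0.35 and 0.31, so 1 rose and 2 fell, beside 11.9% and 13.2% of all tested genes. In NFS1 against NC, of 6 tested MUC1 rose by 0.45 and KRT7 fell by 0.48, beside 15.7% and 12.5% of all tested genes. Between NC and R-47, 4 of 7 were lower and 1, AQP1, higher, beside 39.6% and 40.1% of all tested genes. AQP1 passed the filter on low counts through NC alone and EPCAM through R-47 alone. The biliary keratin KRT19 was at 423 ± 18 CPM in R-47 and 0.794 ± 0.131 in NC (log2 fold change -9.04 with SE 0.08), and KRT7 at 50.1 ± 2.5 and 5.30 ± 0.35 CPM. The summed FPKM of the list was 415 to 449 in R-47 and 126 to 160 in NC, a fall that lay mostly in KRT19. KRT19 averaged 287 FPKM in R-47 and 0.614 in NC, and SPP1 125.5 and 130.8.

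PROX1 also marks lymphatic endothelium, and of 9 endothelial markers 3 were tested in NFS1 against NC. PECAM1 fell by 0.47, where 12.5% of all tested genes were lower, and the others did not pass. The summed FPKM of that list was 9.82 to 12.01 in NC and 9.46 to 10.3 in NFS1, of which KDR alone averaged 8.12 and 7.73. In the NFS1 libraries KDR was at 40.9 ± 1.3 CPM, PECAM1 at 12.5 ± 1.4 and VWF at 0.547 ± 0.146, against 44.1 ± 3.7, 17.6 ± 1.7 and 0.441 ± 0.169 in NC. The lymphatic gene FLT4 averaged 0.0302 CPM in NFS1, its highest group, and 0.0153 in NC. LYVE1 averaged 0.0961 CPM in NFS1 and 0.0465 in NC, and STAB2 0.0506 and 0.0256. CDH5, ERG and TIE1 had no count in NFS1. In NC CDH5 also had none, and ERG and TIE1 averaged 0.00526 and 0.0102 CPM. After heating LYVE1 and PECAM1 rose by 0.85 and 0.18 and KDR fell by 0.27, beside 11.9% and 13.2% of all tested genes. Of 4 tested between NC and R-47, 2 were lower and 2 higher, beside 39.6% and 40.1% of all tested genes. PECAM1 (-1.63) was lower and KDR (1.19) higher, and LYVE1 was lower at 0.0465 ± 0.0567 CPM in NC against 4.50 ± 0.60 in R-47, having passed the filter on low counts through R-47 alone. Of 10 stellate cell and fibroblast markers, 1 of 5 tested, DCN, rose after heating, beside 11.9% of all tested genes. In that comparison DCN passed the filter on low counts through R-47 alone. Of 6 tested in NFS1 against NC, LUM alone passed and rose by 0.78, beside 15.7%. COL1A1 (3.62) and DCN (2.27) were among 5 of 6 higher in NC than in R-47, beside 40.1% of all tested genes. LRAT (-4.31) was lower, beside 39.6%. COL1A1 passed the filter on low counts through NC alone and LRAT through R-47 alone. Of 9 leukocyte markers, 2 were tested in each comparison. ITGAM rose after heating by 0.84 and was lower in NC than in R-47 by 2.59, beside 11.9% and 39.6% of all tested genes. The pan-leukocyte gene PTPRC averaged at most 0.112 CPM.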

How the data were processed

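The authors deposited whole-number counts per gene symbol and FPKM values for 20 libraries; hg38, HTSeq, HISAT2 and fastp are named per the submitters' processing notes, without versions, annotation or strand setting. Deposited FPKM imply 1 gene length in all libraries. Samples were grouped by title.

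Groups were compared in pairs on the deposited counts with edgeR 4.0.16 (R 4.3.3), using filterByExpr (minimum count 10, total 15), TMM, glmQLFit and glmQLFTest, adjusted by Benjamini-Hochberg over all tested genes at 0.05. filterByExpr keeps a gene that reaches its cutoff in as many libraries as a group holds. Counts of list genes therefore include genes that passed it only through the group in which they were high. Printed CPM use TMM over all 20 libraries, so their ratios differ slightly from fitted changes. The fit was also run on simulated data, and the outcome is not reported here.

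The members and lists were chosen with earlier results of these data known. Genes named are the members, NFS1, up to 2 called genes per list, comparison and direction with the largest change (mean of at least 1 CPM in a group), and the 2 genes most like each member. NR0B2, TTR, APOH, PCK1, VWF, FLT4, STAB2, CDH5, ERG, TIE1 and PTPRC were chosen after their values were seen. F2, PROC, TAT, KNG1 and EPCAM, DCN after heating and AGT in NFS1 against NC are named only for how they passed the filter. Some genes of the lists are not reported here.

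Alternatives were DESeq2 size factors, DESeq2 1.42.0, limma-voom (limma 3.58.1), library size alone, no filter or a minimum of 50, all libraries in 1 fit, the replicate block, length and GC offsets, limma on log2 FPKM with pseudocounts of 1 or 0.1, and libraries left out. Motifs were searched on both strands of 250 bases (RefSeq GRCh38.p14). Floors cover counting error only.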

Additional observations from a re-analysis of the deposited data

Results flagged for a closer look

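The 5 libraries of each group were searched for a lowest or highest value of a member far from the other 4, by Dixon's test at its 95% critical value of 0.71. Of 32 sets of a member and a group 2 were found, where chance gives about 1 in 20. CEBPA in NFS1 replicate 4 was at 51.1 CPM, below the other 4 NFS1 libraries at 84.1 to 90.8, with a gap of 0.831 of the range. PROX1 in NC replicate 1 was at 10.8 CPM, above the other 4 NC libraries at 8.29 to 8.81, with a gap of 0.787 of the range. NFS1 replicate 4 was also the library farthest from its group over all genes. The cause was not tested.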

How the results depend on the processing

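Of 23 results for members, 12 kept their call and direction in every alternative run; over 512 refits 459 did, 22 lost the call, 12 gained it and 19 turned the sign of a value that had not passed, 2 of which, both with length and GC offsets, then passed. HNF4A in all 3 comparisons and FOXA1 and PROX1 in NFS1 against NC were among the 12. After heating, 4 members passed, against 2 with log2(FPKM + 0.1), 1 with log2(FPKM + 1) and no filter, and 2 to 5 with each library left out. Genes called were 3604, and 2668 to 4334 with each library left out. In NFS1 against NC 3 members passed, 5 with length and GC offsets and 3 to 4 with each library left out. The 4245 genes called there became 2769 without NFS1 replicates 2 and 3, and 3376 to 5137 with each library left out. Between NC and R-47 7 to 8 members passed with each library left out and 11860 to 12201 genes.

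Sign changes were all close to 0 except with offsets. FOXA2 after heating went to 0.046 with library size alone and to 0.050, 0.053 and 0.050 in the 3 FPKM settings, and leaving out R-37 replicate 1, 3 or 4 or R-47 replicate 4 gave 0.018, 0.0017, 0.011 and 0.013, in a range down to -0.095. CEBPA after heating went to -0.16 with length and GC offsets and to -0.020, -0.054 and -0.0029 without R-37 replicate 2, R-37 replicate 5 or R-47 replicate 5, in a range up to 0.099. In NFS1 against NC, FOXA2 went to -0.012 and -0.0017 without NC replicate 3 or NFS1 replicate 1, in a range up to 0.091. ONECUT2 went to -0.23 with the offsets, to -0.0079, -0.0026 and -0.071 without NC replicate 2, NC replicate 3 or NFS1 replicate 4 (up to 0.068 with others left out), and to -0.044 without NC replicate 1 and NFS1 replicate 4. The causes were not tested. With library size alone 2977 genes rose and 1013 fell after heating, against 1714 and 1890, and 7465 were higher and 4740 lower in NC than in R-47, against 6043 and 5978. With length and GC offsets 1968 rose and 2790 fell after heating, and 2267 were higher and 3139 lower in NFS1 than in NC, against 2364 and 1881.

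Same-numbered libraries share a number only. Their deviations correlated at -0.112 to 0.109 after heating, -0.231 to 0.0816 in NFS1 against NC and -0.00836 to 0.149 in NC against R-47, and 0, 0 and 2 of 5 matched best with their own number. The replicate block gave 2928, 3068 and 12104 genes called, and 3, 4 and 8 members. Depth limits NR1H4 in NC and NFS1, at 2 to 15 counts.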

Other observations

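Transcription factors of other endodermal organs were also present. Of a list of 12 genes of gut, lung and pancreas, 9 were in the table and 4 were tested in each comparison. The intestinal factor CDX2 was at 10.4 ± 1.4 CPM in R-37, 12.1 ± 1.1 in R-47, 19.0 ± 1.8 in NC and 13.8 ± 0.9 in NFS1. It was lower in NFS1 than in NC (log2 fold change -0.44 with SE 0.08) and higher in NC than in R-47 (0.66 with SE 0.08). SOX2, a factor of the foregut and of stem cells, was at 24.0 ± 0.7 CPM in NC and 37.5 ± 1.8 in NFS1 (0.66 with SE 0.06) and was lower in NC than in R-47 (-1.004 with SE 0.05). These changes passed edgeR's test after adjustment over all tested genes.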
